A study of Mus musculus with 26 samples.

Results

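Pcp4, Camkv and the genes of calmodulin and of calcium/calmodulin-dependent kinase II (CaMKII) were followed across 26 single mouse retinal amacrine cells, each hybridised to its own Affymetrix mouse expression array. The list held 9 genes, namely Pcp4, its paralogue Pcp4l1, Camkv, the calmodulin genes Calm2 and Calm3, and the CaMKII genes Camk2a, Camk2b, Camk2d and Camk2g. Of these, 7 had a named probe set and stood among 18193 measured genes, while Calm2 and Calm3 were not analysed here. Pcp4 and Camkv were picked for their patterns in these same cells, so their levels, differences and likenesses below are a description and carry no test.

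A genetic reporter, GFP under the promoter of Ndrg4 or of Synapsin (pNdrg4 or pSynapsin), was electroporated into retinas of newborn mice, in the animal or in the dish, and single GFP-positive cells were picked by hand after papain dissociation. The groups, in order of age, were 1 pSynapsin cell labelled E19 with 4 days of culture, 2 pNdrg4 cells of P4 with 4 days of culture, 4 pSynapsin cells of P5 and 5 pNdrg4 cells of P5 with 5 days of culture each, 10 pNdrg4 cells of P5 with no culture stated, and 2 pSynapsin and 2 pNdrg4 cells of P8 with 8 days of culture each. All groups carried an electroporated reporter, which selects the cells in which its promoter was active, and the labels name no mutant allele and no strain. Which animal, retina or dish a cell came from is not in the labels, so a group counts as 1 sample, spreads are over cells, and no p-value was made. Groups are called by age and reporter, with "cultured" or "no culture stated" where both kinds exist, and cells by their letter and number in the labels.

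Amacrine cells shape the signals of the inner retina, most of them by releasing GABA or glycine. Calmodulin is the main calcium sensor inside neurons, and on binding calcium it switches on kinases, phosphatases, cyclases and pumps. Pcp4 (PEP-19) is a small protein whose IQ motif binds calmodulin and changes the speed of its calcium binding, and Pcp4l1 is its close relative. CaMKII is a multi-subunit kinase assembled from the products of Camk2a, Camk2b, Camk2d and Camk2g, and Camkv encodes a vesicle-associated protein related to these kinases that binds calmodulin and is regarded as a pseudokinase.

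Because Pcp4 and Camkv carry the patterns described below, the windows around their annotated starts are shown, from 250 bases before to 50 bases after the start, as given by RefSeq on GRCm38.p6. The Pcp4 window is chr16:96467356-96467655 and the Camkv window is chr9:107935670-107935969, both on the plus strand. Capitals mark matches to any of the motifs searched on both strands, which were the TATA box spelled TATAAA, the CCAAT box, the GC box spelled GGGCGG, the first of 2 E-boxes spelled CAGCTG, the other of them spelled CAGATG and a homeodomain core spelled TAATTA.
Pcp4: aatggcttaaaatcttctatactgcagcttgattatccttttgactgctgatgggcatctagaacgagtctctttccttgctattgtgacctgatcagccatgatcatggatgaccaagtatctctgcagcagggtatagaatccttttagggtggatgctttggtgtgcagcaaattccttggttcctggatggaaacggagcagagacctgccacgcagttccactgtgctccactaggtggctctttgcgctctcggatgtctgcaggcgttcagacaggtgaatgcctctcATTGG
Camkv: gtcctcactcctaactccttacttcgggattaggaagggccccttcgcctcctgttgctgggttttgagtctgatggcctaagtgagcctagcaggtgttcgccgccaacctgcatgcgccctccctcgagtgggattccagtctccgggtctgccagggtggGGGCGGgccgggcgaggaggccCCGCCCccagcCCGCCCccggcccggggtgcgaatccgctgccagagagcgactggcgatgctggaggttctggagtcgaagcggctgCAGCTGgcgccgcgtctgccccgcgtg
The Pcp4 window was 48.7% G or C with 6 CpG sites and held 1 match, a CCAAT box on the minus strand at position 46 from the start. The Camkv window was 68.3% G or C with 25 CpG sites and held 4 matches, GC boxes at positions -87, -65 and -54, the last 2 on the minus strand, and a CAGCTG E-box at position 24. Over 32851 promoter windows of the same length the median was 52.7% G or C with 7 CpG sites. A CCAAT box was present in 37.4% of those windows, a GC box in 35.7%, the first E-box in 16.3%, the other in 17.2%, a TATA box in 13.6% and the homeodomain core in 5.29%. No matches overlapped one another, and they describe letters in these windows and say nothing of binding.

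Signals were the authors' MAS5 intensities, on a linear scale on which each array's trimmed mean is 500. Detection in a cell required a signal of 1000 or more. Differences were taken on log2 signals after values under 200 had been set to 200. Between 1909 and 4180 genes were detected per cell, with a median of 3253.5. Of 11 amacrine marker genes each cell had 4 to 9 detected, which does not settle the label of every cell. Rod photoreceptor markers (11 of 13 measured) were also detected in many cells, up to 8 of 11. The P5 pSynapsin cell E2 had 7 rod markers, where its group had 4 to 6 amacrine markers per cell. The P8 pSynapsin cell B4 had 8 rod markers, where its group had 6 to 7 amacrine markers per cell. Muller glia markers reached 6 of 9 in a cell, while none of 6 microglial markers was detected in any cell. The median number of detected genes was 3472 in P5 pSynapsin cells, 3256 in cultured P5 pNdrg4 cells and 2361.5 in P5 pNdrg4 cells without a stated culture.

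Pcp4 was either strong or near background. It was detected in 10 of 26 cells (38.5%, exact Clopper-Pearson 95% interval 20.2 to 59.4%), and its median signal over those cells was 16063. Its lowest detected signal was 3151 and its highest undetected one was 154.9, so no cell lay between. The interval, like those below, treats the 26 cells as independent although they pool 7 groups from unnamed animals. The 4 P5 pSynapsin cells had signals of 17420.4 (E1), 16947 (E2), 14348 (E3) and 24019 (E4), all of them high. In the 5 cultured P5 pNdrg4 cells the signals were 55.0 (C6), 50.6 (D5), 15.9 (D3), 19049 (D6) and 13.0 (C1), so 4 cells were near background and 1 was as high as the pSynapsin cells. The 10 pNdrg4 cells of P5 with no culture stated ranged from 9.48 through a median of 131.7 to 10506, and only A2 (3151) and A6 (10506) were detected. At P8 the pSynapsin cells had 15179 (B4) and 30478 (B3), against 94.97 (A1) and 10889.9 (A2) in the pNdrg4 cells. The E19 pSynapsin cell had 17.9 and the P4 pNdrg4 cells 63.3 and 42.2, none of them detected. All 6 pSynapsin cells of P5 or P8 had Pcp4, whereas the 1 pSynapsin cell labelled E19 did not.

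**Figure D1:**
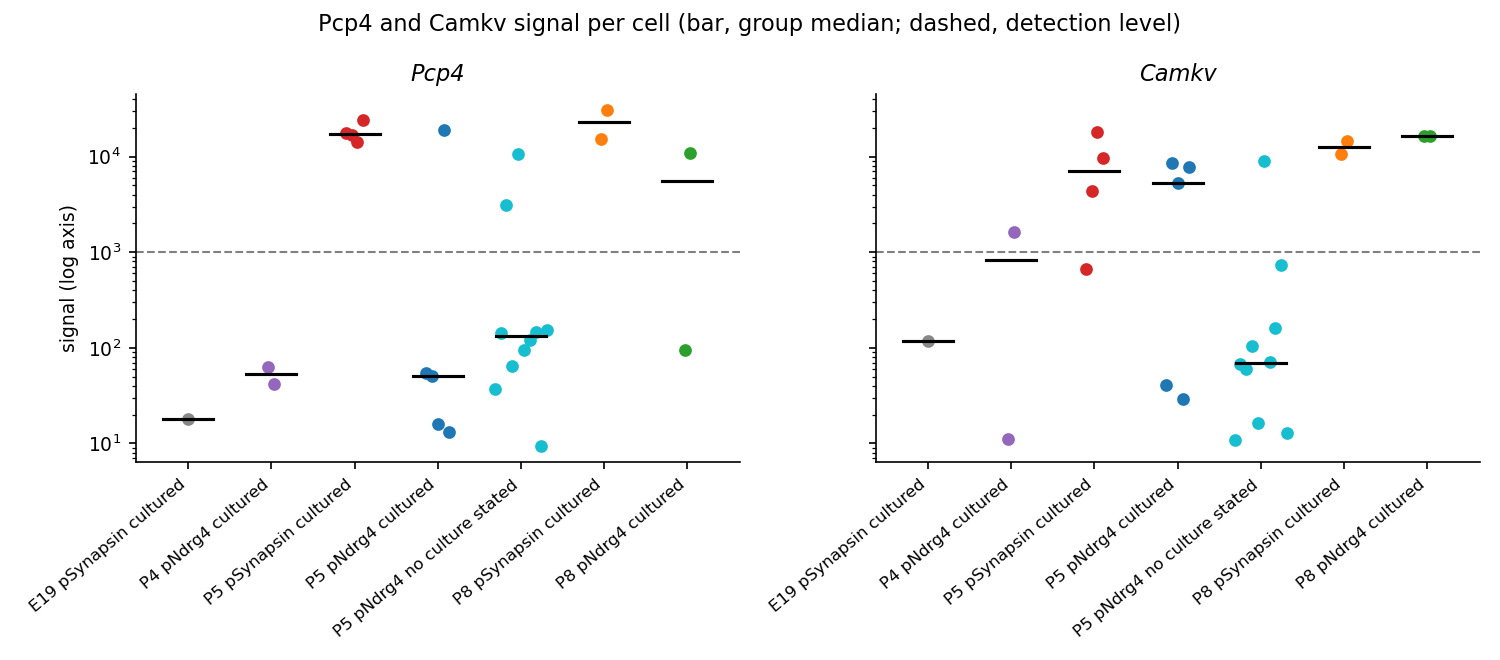
Signal of Pcp4 (left) and Camkv (right) on a log axis, 1 point per cell, in the 7 groups from E19 to P8; black bars are group medians and the dashed line is the detection level of 1000. The P5 and P8 pSynapsin cells lie at 14348 or above for Pcp4, while most pNdrg4 cells lie below 200, and the 4 P8 cells lie at 10741 or above for Camkv.

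By group mean of log2 signal, Pcp4 stood highest in P8 pSynapsin cells at 14.39 ± 0.71 (SD, n = 2), followed by P5 pSynapsin cells at 14.12 ± 0.31 (n = 4) and P8 pNdrg4 cells at 10.53 ± 4.08 (n = 2). Then came cultured P5 pNdrg4 cells at 8.96 ± 2.94 (n = 5) and P5 pNdrg4 cells with no culture stated at 8.61 ± 2.08 (n = 10), and the P4 and E19 cells were at the floor of 7.64. No 2 neighbours in this order differed by more than the larger of their SDs. Pcp4l1 was detected in 0 of 26 cells (interval 0 to 13.2%), and its highest signal was 480.4 in the P5 pNdrg4 cell B3 with no culture stated.

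Camkv was detected in 12 of 26 cells (46.2%, interval 26.6 to 66.6%), with a median signal of 9336 where detected. Its lowest detected signal was 1641 and its highest undetected one was 726.5. The P5 pSynapsin cells had 671.3 (E1), 4339 (E2), 18272 (E3) and 9771 (E4), and the cultured P5 pNdrg4 cells had 40.8 (C6), 8611 (D5), 5349.6 (D3), 29.4 (D6) and 7731 (C1). Each of these groups therefore held cells with strong Camkv and cells without it. In pNdrg4 cells of P5 with no culture stated the signals ranged from 10.8 through a median of 69.5 to 8901, and B1 was the 1 detected cell of 10. At P8 the signals were 10741 (B4) and 14629 (B3) in pSynapsin cells, against 16284 (A1) and 16501 (A2) in pNdrg4 cells, so all 4 cells were high. The E19 cell had 117.2, and the P4 cells had 11.2 (A3) and 1641 (B4).

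By group mean of log2 signal, Camkv stood highest in P8 pNdrg4 cells at 14.00 ± 0.01 (n = 2) and in P8 pSynapsin cells at 13.61 ± 0.32 (n = 2), a gap larger than both SDs but resting on 2 cells a group. P5 pSynapsin cells followed at 12.22 ± 2.07 (n = 4), then cultured P5 pNdrg4 cells at 10.73 ± 2.83 (n = 5), P4 pNdrg4 cells at 9.16 ± 2.15 (n = 2), P5 pNdrg4 cells with no culture stated at 8.38 ± 1.77 (n = 10) and the E19 cell at the floor. From P8 pSynapsin cells downwards, neighbours differed by less than the larger of their SDs.

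Among the CaMKII genes Camk2b and Camk2g were each detected in 6 of the 7 groups, Camk2d in 5 and Camk2a in 2. Camk2b, whose product also binds actin filaments, was detected in 13 of 26 cells (50%, interval 29.9 to 70.1%) at 1039 to 8948. Camk2g was detected in 12 cells at 1370 to 6679 (highest undetected signal 528.6), and Camk2d in 10 cells at 1205 to 6127 (highest undetected signal 954.8). Camk2a, the forebrain-rich subunit gene, was detected in 2 cells only, the P5 pSynapsin cell E3 (1096) and the P8 pNdrg4 cell A2 (1558), both close to the detection level. All 4 CaMKII genes were below 1000 in the E19 cell, at 73.6 to 152.9.

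Among pNdrg4 cells of P5 with no culture stated, the highest Camk2b signal of all 26 cells was in B2 (8948), a cell in which no other listed gene was detected. Camk2g in the same group reached 6332 in A8 and 2796 in A6, and Camk2d reached 1205 in A8. In cultured P5 pNdrg4 cells Camk2d was highest in C6 (6127) and Camk2g in D3 (6679). At P8 Camk2d was detected in all 4 cells, at 2244 (B4) and 3011 (B3) in pSynapsin cells, against 6054 (A1) and 2209 (A2) in pNdrg4 cells.

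Probe sets of a gene did not always give the same picture. Camk2d had 7 probe sets, and the one used was detected in 10 cells. Another was detected in 4 cells, 2 of them cells where the first was not, with its maximum of 6813 in the P5 pNdrg4 cell A5 with no culture stated and a Pearson r of 0.05 with the first. With any probe set counted, Camk2d was detected in 12 cells. The second probe set of Camk2g was detected in 5 cells, all among the 12, and of 6 probe sets of Camk2a only the one used was detected in any cell. Pcp4, Pcp4l1, Camkv and Camk2b had 1 probe set each.

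**Figure D2:**
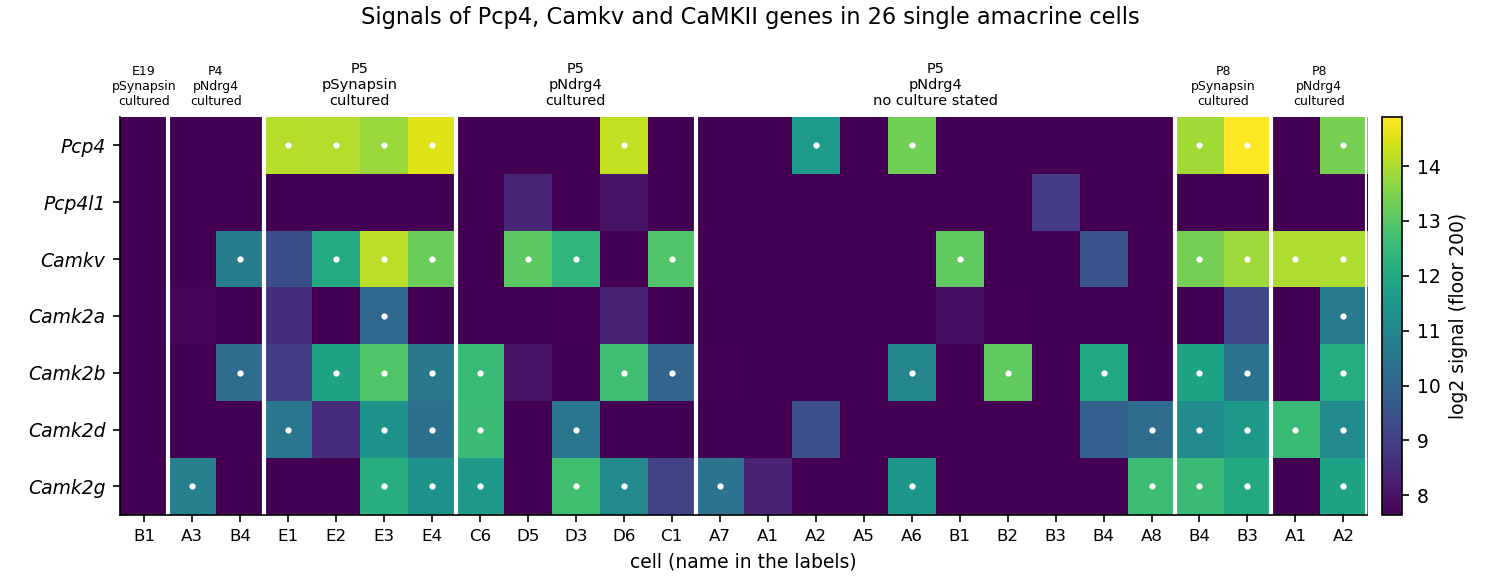
Log2 signal (floor 200) of the 7 measured genes (rows) in the 26 cells (columns, grouped by age, reporter and stated culture); white dots mark detection at 1000. Cells E3 of P5 pSynapsin and A2 of P8 pNdrg4 have 6 genes detected, and 4 cells have none.

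Counted per cell, 2 cells had 6 of the 7 genes detected, the P5 pSynapsin cell E3 and the P8 pNdrg4 cell A2. Another 3 cells, E4 of P5 pSynapsin and both P8 pSynapsin cells, had the same genes except Camk2a. At the other end 4 cells had none, the E19 cell and the P5 pNdrg4 cells A1, A5 and B3 with no culture stated. Pcp4, Camk2b and Camk2g were detected together without Camkv in the cultured P5 pNdrg4 cell D6 and in A6, and Pcp4 alone in A2, where A6 and A2 are P5 pNdrg4 cells with no culture stated. The number of these genes per cell was higher where more genes were detected in all (Pearson r = 0.64 over 26 cells, which differ in amplification as well as in type). The same correlation with the number of detected genes was 0.63 for Camk2d, 0.60 for Camkv, 0.50 for Camk2a, 0.43 for Pcp4, 0.42 for Camk2b and 0.36 for Camk2g.

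Camkv was found mostly in cells with a marker of glycinergic amacrine cells and seldom in cells with Gad1. It was detected together with Slc6a9, which encodes the glycine transporter GlyT1 of glycinergic amacrine cells, in 11 cells, without it in 1 cell, and Slc6a9 without Camkv in 3 cells. Over 26 cells their log2 signals had a Pearson r of 0.86, the highest of 6267 other genes detected in 4 to 22 cells, and Camkv was in turn the gene most like Slc6a9. The correlations here and below are over cells that each come from 1 amplified library and differ in depth, so they describe these libraries only. The 1 cell with Camkv but no Slc6a9 was the P4 pNdrg4 cell B4, with Camkv at 1641, Slc6a9 at 206.9 and Gad1 at 27313. The 3 with Slc6a9 but no Camkv were the P5 pSynapsin cell E1 (Slc6a9 2022, Camkv 671.3) and the P5 pNdrg4 cells B4 (2877, 726.5) and A6 (15300.1, 16.5) with no culture stated. E1 and B4 thus had Camkv short of the detection level, while A6 had none. The cultured P5 pNdrg4 cell D6, counted as having neither, had Slc6a9 just short of that level (989.9) and Camkv at 29.4. Without A6 the correlation was 0.94. Among the 10 pNdrg4 cells of P5 with no culture stated alone it was 0.69, where Camkv was detected in 1 cell.

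Gad1, which encodes a GABA-synthesising enzyme, was the gene least like Camkv (r = -0.71). Both were detected together in 1 cell, Camkv alone in 11, Gad1 alone in 10 and neither in 4. With Gad2, the other GABA-synthesising enzyme gene, no such split was seen, as both were detected in 6 cells and the r was -0.09. All 12 cells with Camkv also had Slc32a1, which loads both transmitters into vesicles and was detected in 22 cells in all.

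**Figure D3:**
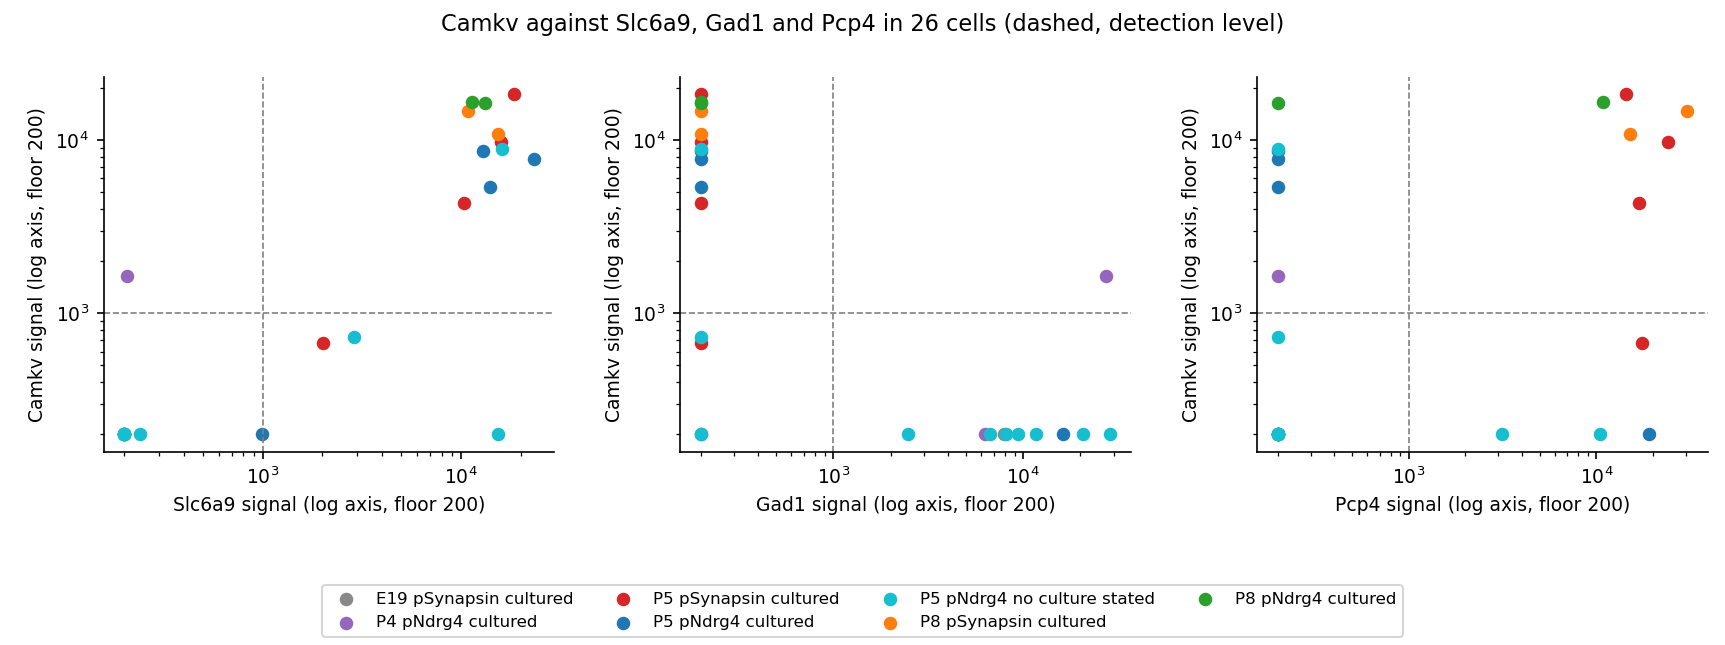
Camkv signal (vertical, log axis, floor 200) against Slc6a9, Gad1 and Pcp4 (horizontal, log axes, floor 200) in 26 cells coloured by group; dashed lines mark the detection level of 1000. Camkv and Slc6a9 are high together in 11 cells, Camkv and Gad1 in 1 cell, and Camkv and Pcp4 in 6 cells.

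After Slc6a9 the genes most like Camkv were Lamp5, a lysosome-associated membrane protein of neurons (r = 0.83, both in 11 cells), Dab1, the adaptor of reelin signalling (0.75, both in 10), Lhfp (0.75, both in 11) and Frrs1l, which takes part in AMPA receptor assembly (0.74, both in 6). The next lowest after Gad1 were Lrrn3 (-0.70) and Fbxo36 (-0.70). When each cell was left out in turn, Slc6a9 and Lamp5 stayed among the 5 most like genes in all 26 cases, Dab1 in 21, and Lhfp and Frrs1l in 20 each. Other settings changed the 5 more: 3 of them were still among the 5 by Spearman's rho, where Frrs1l (0.84) stood above Slc6a9 (0.80), 1 by phi of detection, 2 in cultured cells alone and 0 in the cells with no culture stated alone. In the cells with no culture stated Camkv was detected in 1 of 10, so that setting rests on very few values. By phi Slc6a9, at 0.70, was not among the 5.

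Pcp4 had a different set of most like genes. They were Parn, a poly(A) ribonuclease (r = 0.77, both in 7 cells), Ret, a receptor kinase for the GDNF family (0.75, both in 7), Morn4 (0.74, both in 9), Tbpl1, a relative of the TATA-binding protein (0.73, both in 5), and Chrna4, a nicotinic receptor subunit (0.71, both in 4). Ret had 15104 in E1 and 15610 in E4 but 36.5 in E2, all P5 pSynapsin cells with Pcp4, so the likeness was not complete within that group. The least like genes were Tfap2b, a transcription factor of amacrine cells (-0.64, both in 5), Slc6a11, a GABA transporter (-0.60, both in 0 cells), and Zcchc14 (-0.59, both in 2). Leaving out each cell in turn kept Parn among the 5 in all 26 cases, Ret in 25, Morn4 in 23, Tbpl1 in 19 and Chrna4 in 9. Of the 5, 2 were still among them by Spearman's rho, 1 by phi (Morn4), 1 in cultured cells alone (Ret) and 1 in the cells with no culture stated alone (Morn4). In that last setting Pcp4 was detected in 2 of 10 cells, so it rests on very few values.

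Pcp4 and Camkv overlapped only in part. Both were detected in 6 cells, Pcp4 alone in 4, Camkv alone in 6 and neither in 10 (r = 0.35). Among the 10 cells with no culture stated Pcp4 was detected in 2 and Camkv in 1. No cell there had both and the r was -0.21, but with so few detected cells nothing is read from this. With Slc6a9 Pcp4 shared 8 cells (r = 0.48), with Gad1 1 cell (r = -0.56) and with Gad2 2 cells. The 1 cell with Pcp4 and Gad1 was A6 with no culture stated, which had Slc6a9 at 15300.1 and Gad1 at 2471.

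Between the listed genes the highest correlations were those of Pcp4 with Camk2a (r = 0.53, both in 2 cells) and with Camk2b (0.52, both in 8 cells). Camk2d and Camk2g were detected together in 8 cells (0.47), and Camkv and Camk2d in 7 (0.47). The genes most like Camk2b were Qrsl1 (0.78), Abhd17b (0.73) and Oxct1, an enzyme of ketone body use (0.72). Those most like Camk2d were Stx3, a syntaxin of ribbon synapses (0.82), Slc4a10, a bicarbonate transporter (0.81), and Tbc1d31 (0.77). Those most like Camk2g were Pnpla8 (0.72), Dnajc27 (0.70) and Hsd17b12 (0.68).

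The reporter comparison set P5 pSynapsin cells against cultured P5 pNdrg4 cells. Pcp4 was higher by 5.17 on the log2 scale, detected in 4 of 4 pSynapsin cells and 1 of 5 pNdrg4 cells, and it was the 1 listed gene past 2 log2 units. Pcp4 was picked from this contrast, so nothing is read from its size, and over 8570 genes detected in at least 2 cells 6.02% were higher by at least 2 and 4.25% lower. The groups overlapped for Pcp4 because the pNdrg4 cell D6 (19049) lay within the pSynapsin range. Without D6 the difference was 6.48. Groups that did not overlap were found for 1.03% of all genes in the higher and 0.525% in the lower direction. Camkv was higher by 1.49 (3 of 4 and 3 of 5 cells), Camk2d by 0.98, Camk2b by 0.86 and Camk2a by 0.70. Camk2g differed by -0.70 (2 of 4 and 3 of 5 cells) and Pcp4l1, never detected, by -0.23.

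The summed signal of the 11 rod markers was 7588 to 70436 in P5 pSynapsin cells, against 1028 to 5962 in cultured P5 pNdrg4 cells. Of these markers 7 of 11 were detected in P5 pSynapsin cells, against 4 of 11 in cultured P5 pNdrg4 cells, and Gnat1, Gngt1, Cnga1 and Prph2 in no P5 pSynapsin cell. Of 8 rod genes detected in at least 2 cells 4 were higher by at least 2 in pSynapsin cells, with a median difference of 2.11. In pSynapsin cells Pcp4 was 24019 at the lowest rod sum (E4, 7588) and 16947 at the highest (E2, 70436). In the pNdrg4 cells Pcp4 was 19049 in D6 (rod sum 2735). It was at most 55.0 in the other pNdrg4 cells, whose rod sums were 1028 to 5962. Xist, expressed in female cells, was detected in 1 of 4 pSynapsin cells and in 5 of 5 pNdrg4 cells. Of 11 amacrine markers 0 were higher by at least 2 in pSynapsin cells and 3 lower, Tfap2b (-3.55), Tfap2a (-3.10) and Gad2 (-2.45). Slc6a9 was higher by 1.20 (4 of 4 and 3 of 5 cells), and Gad1 differed by -1.27 (0 of 4 and 1 of 5 cells). The part of rod and amacrine marker signal and of the Xist split in the listed genes' differences was not tested.

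At P8 the same comparison had 2 cells a group. Pcp4 was higher in pSynapsin cells by 3.87 and Camk2g by 2.58, and neither gene overlapped between the groups. Of all genes 11% were higher and 9.98% lower by at least 2, and 10.9% did not overlap and were higher. Both values rested on 1 pNdrg4 cell: without A1 Pcp4 differed by 0.98 and Camk2g by 0.48, and without A2 by 6.75 and 4.67. Camkv was lower in pSynapsin cells by 0.39 with no overlap, as were 10.4% of all genes. Camk2b differed by 1.24, Camk2d by -0.49, Camk2a by -0.70 and Pcp4l1 by 0. Xist was detected in 0 of 2 pSynapsin cells and 2 of 2 pNdrg4 cells. The summed signal of Muller glia markers was 3076 to 23902 in pSynapsin cells, against 13620.1 to 32584 in pNdrg4 cells (median difference of 5 genes -1.87), and the rod sum was 8981 to 99562, against 35873 to 47401. Of 11 amacrine markers 0 were higher by at least 2 in pSynapsin cells and 2 lower, Stx1a (-2.57) and Tfap2b (-2.07). The part of all these markers in these differences was not tested. Xist followed the reporter fully at P8, so they cannot be told apart.

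**Figure D4:**
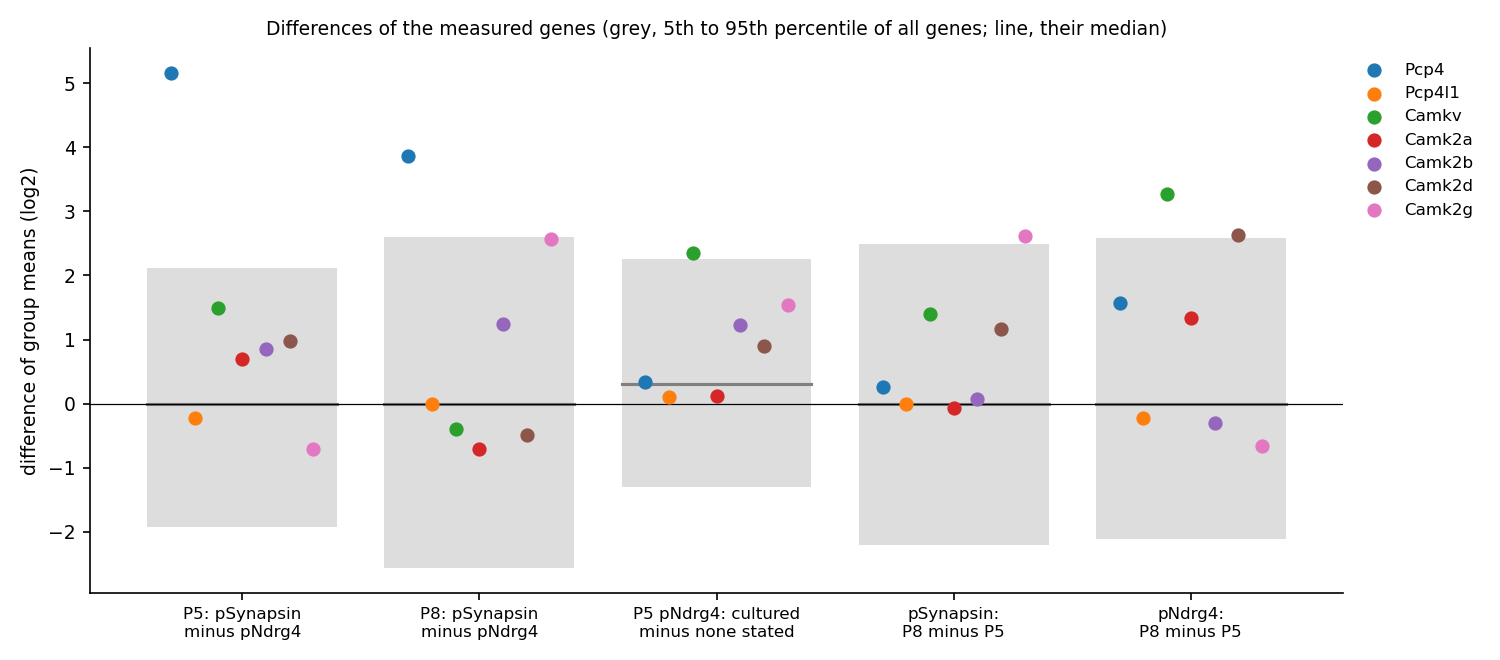
Difference of group mean log2 signals for the 7 measured genes in 5 comparisons; grey boxes span the 5th to 95th percentile of 8570 genes and the grey line is their median. Pcp4 lies at 5.17 in the P5 reporter comparison, where the box ends at 2.11, and Camkv lies at 2.35 in the culture comparison, where it ends at 2.25. Both genes were picked for their patterns in these cells, so nothing is read from these places. With a floor of 500 the Camkv culture difference was 1.83.

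The culture comparison set cultured P5 pNdrg4 cells against those with no culture stated. Camkv was detected in 3 of 5 cultured cells and 1 of 10 others, and its mean was higher by 2.35, beside 7.36% of all genes that were higher by at least 2 and 1.48% lower. With group medians the difference was 4.74, and without D5, D3 or C1 it was below 2, at 1.77, 1.94 and 1.81. Camk2g was higher by 1.54 (3 of 5 and 3 of 10 cells), Camk2b by 1.23 (3 of 5 and 3 of 10), Camk2d by 0.89 (2 of 5 and 1 of 10), Pcp4 by 0.35 (1 of 5 and 2 of 10), Camk2a by 0.12 and Pcp4l1 by 0.10. None of these genes separated the groups, as 0.21% of all genes did in the higher and 0.128% in the lower direction. Most genes leaned the same way, as 60.6% of all genes were higher in cultured cells and their median difference was 0.31.

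The cultured cells had 3049 to 3925 genes detected, against 1909 to 3513 in the cells with no culture stated. The rod sum was 1028 to 5962 in cultured cells, against 384.5 to 61388 in the others, and the summed signal of 9 Muller glia markers was 666.5 to 20370.1, against 5518 to 62887. Of these glial markers 3 of 9 were detected in the cultured cells, against 7 of 9 in the others, and Aqp4 and Apoe in neither. Xist was detected in 5 of 5 cultured cells and 0 of 10 others. The class markers that go with Camkv differed as well: Slc6a9 was higher in cultured cells by 2.59 (3 of 5 and 3 of 10 cells) and Gad1 differed by -2.66 (1 of 5 and 7 of 10 cells). The part of depth and of all these markers in the Camkv difference was not tested. Xist followed the stated culture fully, so they cannot be told apart.

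Age was compared as P8 against P5 within each reporter among cultured cells, which are the same cells as in the reporter comparison. All P8 cells had 8 days of culture and all these P5 cells 5 days, so age and days in culture cannot be told apart. Camkv was higher at P8 by 1.39 in pSynapsin cells (2 of 2 and 3 of 4 cells) and by 3.27 in pNdrg4 cells (2 of 2 and 3 of 5 cells), a mean of 2.33. In pNdrg4 cells both P8 values lay above all P5 values, as they did for 4.63% of all genes (1.89% in the lower direction), while in pSynapsin cells the ages overlapped for Camkv and for the other listed genes, beside 5.09% and 2.68% of all genes that did not overlap. Of all genes 3.82% had a mean difference of at least 2 and 1.67% of -2 or less. The mean was below 2 without the P5 pSynapsin cell E1 (1.86) or the P5 pNdrg4 cells C6 or D6 (1.94 each), and with group medians it was 1.28.

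Camk2d was higher at P8 by 1.16 in pSynapsin cells and by 2.64 in pNdrg4 cells (2 of 2 and 2 of 5 cells), a mean of 1.90. The value of 2.64 was 1.91 without A1, 4.19 with group medians and 0 with the median probe set. Camk2g was higher by 2.61 in pSynapsin cells (2 of 2 and 2 of 4 cells; 1.92 without E1 or without E2) but differed by -0.66 in pNdrg4 cells. Of all genes 9.44% were higher by at least 2 in pSynapsin cells and 6.57% lower, and 10.2% and 5.82% in pNdrg4 cells. Pcp4 differed by 0.27 in pSynapsin cells, where it was detected in all 6 cells, and by 1.57 in pNdrg4 cells (1 of 2 and 1 of 5). Camk2b differed by 0.08 and -0.30, Camk2a by -0.07 and 1.33, and Pcp4l1 by 0 and -0.23, in pSynapsin and in pNdrg4 cells.

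The rod sum was 8981 to 99562 in P8 pSynapsin cells, against 7588 to 70436 in P5 pSynapsin cells, and 35873 to 47401 in P8 pNdrg4 cells, against 1028 to 5962 in cultured P5 pNdrg4 cells. Of the 11 rod markers 8 were detected in each P8 group, against 7 in P5 pSynapsin cells and 4 in cultured P5 pNdrg4 cells, and Gngt1, Cnga1 and Prph2 in no P8 cell. The median difference of 8 rod genes was 1.29 in pSynapsin cells (3 higher by at least 2) and 3.72 in pNdrg4 cells (8 higher by at least 2). In pNdrg4 cells the summed signal of Muller glia markers was 13620.1 to 32584 at P8, against 666.5 to 20370.1 at P5, and 3 of 5 such genes were higher by at least 2 (median 2.13). In pSynapsin cells that sum was 3076 to 23902 at P8, against 5227 to 30797 at P5. Slc6a9 was higher at P8 by 0.54 in pSynapsin cells and by 1.67 in pNdrg4 cells (2 of 2 and 3 of 5 cells). Gad1 differed by 0 and by -1.27. Of the cultured P5 pNdrg4 cells D5, D3 and C1 had both Camkv and Slc6a9 detected, and C6 and D6 neither. In D6 Slc6a9 was 989.9, just short of the detection level, with Camkv at 29.4. The median number of detected genes was 3732.5 at P8 and 3472 at P5 in pSynapsin cells, and 3781 and 3256 in pNdrg4 cells. The part of depth and of all these signals in the age differences was not tested. Without the 6 cells that had at least 5 rod genes detected, a setting added after the data were seen, Pcp4 was detected in 35% and Camkv in 40% of the other 20 cells.

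A wider list of 67 calmodulin-related genes was read beside them, of which 62 were measured, 15 were detected in no cell and 41 were detected in at least 2. Marcks and Marcksl1, membrane-bound proteins that sequester calmodulin, were detected in all 26 cells, and Ppp3cb, a catalytic subunit of calcineurin, in 22. Those detected in no cell were Calm4, Calml3 and Calml4 (calmodulin-like), Dapk2 and Phkg1 (kinases), Ppp3cc, Ppp3r2, Nfatc1 and Nfatc4 (calcineurin and its targets), Adcy8, Pde1a and Nos1 (enzymes), Atp2b4 (a calcium pump), and Grin2a and Actn2 (partners of CaMKII).

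**Figure D5:**
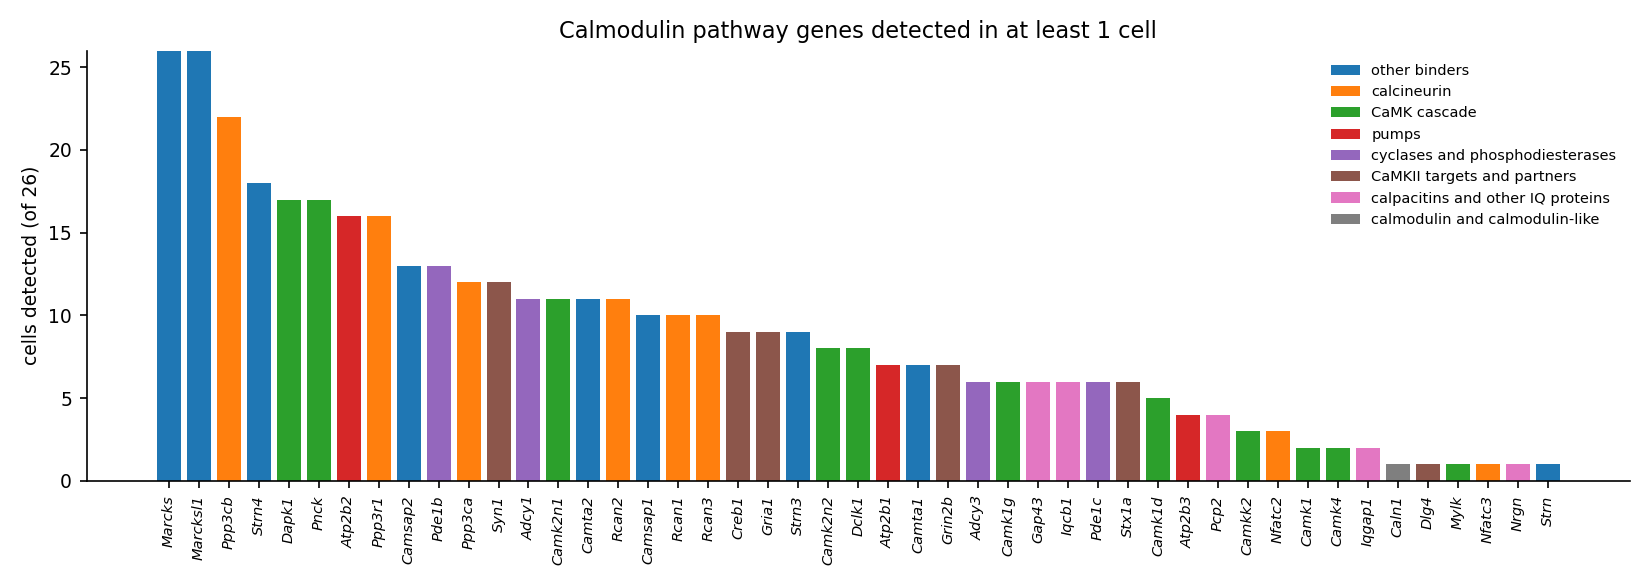
Number of cells, of 26, in which each gene of the calmodulin-related list was detected, for the genes detected in at least 1 cell, coloured by class. Marcks and Marcksl1 reach 26 cells and Ppp3cb 22, while most others lie well below.

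In the P5 reporter comparison 2 of the 41 genes were higher by at least 2 in pSynapsin cells, Pde1c, a calmodulin-activated phosphodiesterase (3.37), and Camta2, a calmodulin-binding transcription activator (2.20), beside 6.02% of all genes. Another 4 were lower, beside 4.25% of all genes, and these were Pnck, a kinase of the CaMKI family (-2.83), Camsap2 (-2.68) and Camsap1 (-2.43), which bind microtubule ends, and Camk2n1, an inhibitor of CaMKII (-2.55). At P8 4 were higher, Atp2b3 (3.24), Camk2n1 (2.37), Gria1 (2.29) and Rcan2 (2.14), and 4 lower, Stx1a (-2.57), Rcan3 (-2.26), Pcp2 (-2.07) and Atp2b1 (-2.04), beside 11% and 9.98% of all genes. Camk2n1 thus had opposite signs at the 2 ages, a difference that was not tested. The list's median was 0 at both ages, as was that of all genes.

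In the culture comparison 6 were higher in cultured cells, the calcium pump gene Atp2b2 (3.82), Camsap1 (2.94), Camk2n1 (2.74), Camk1g (2.52), the second CaMKII inhibitor Camk2n2 (2.08) and Pde1b (2.03). The AMPA receptor gene Gria1 was the 1 lower gene (-2.82). Of all genes 7.36% were higher and 1.48% lower. The list's median was 0.46, beside 0.31 over all genes. Between P8 and P5, pSynapsin cells had 5 higher genes, Atp2b3 (3.24), Camsap2 (3.15), Rcan2 (2.29), Pnck (2.15) and Atp2b2 (2.09), and 1 lower, Camk1g (-2.53), beside 9.44% and 6.57% of all genes. In pNdrg4 cells 4 were higher at P8, Rcan3 (3.19), Stx1a (2.51), Ppp3r1 (2.14) and Rcan1 (2.01), of which Ppp3r1 is the regulatory subunit of calcineurin and Rcan1 and Rcan3 are its regulators. Lower there were Camk2n1 (-4.27), Pde1b (-3.18), Camsap1 (-3.02), Camk1g (-2.52) and Creb1 (-2.11), so that 4 were higher and 5 lower, beside 10.2% and 5.82% of all genes. In the mean of both reporters Rcan3 (2.05) and Camk1g (-2.52) were past 2, beside 3.82% and 1.67% of all genes, and the list's median was 0.35 beside 0.05 over all genes.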

How the data were processed

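The deposited table holds 1 linear signal intensity for each probe set and cell, which the authors computed with MAS5, as the submitters' processing notes say. The version of MAS5: not given in the sources used here. Per the labels' protocols each cell's RNA was reverse transcribed from oligo dT and amplified by 35 PCR cycles. The trimmed mean (2% at each end) is 500 on every array, so signals were not rescaled. Of 45101 probe sets 64 were controls and 34945 named 1 gene; of several probe sets the one with the highest mean of log2 signals stood for the gene. Python 3.11.15 was used with scipy 1.17.1, pandas 2.3.3, numpy 2.4.6 and, for plots, matplotlib 3.10.9. Differences are between group means of log2 signals with a floor of 200 (7.64), and the scripts were tested on simulated data. PCR products are not independent molecules, and the cells pool 7 unlike groups from unnamed animals. Intervals therefore cover counting error only and describe these cells.

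All members were named; from the calmodulin list, genes at least 2 log2 units apart in a comparison or detected in at least 20 cells or in none; as like genes, the 5 highest and 3 lowest by Pearson r for Pcp4 and Camkv and the 3 highest for other members, clone-type symbols aside. The members, lists and rules were chosen with earlier results of these data known. Single cells and marker values named beside a result were chosen after they were seen. Alternatives covered the detection level, probe set choice, quantile and 75th percentile scaling, floors of 50 and 500, group medians, other measures of likeness and leaving out each cell.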

Additional observations from a re-analysis of the deposited data

Results flagged for a closer look

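In groups of 4 to 10 cells, 5 values stood further from the other cells of their group than Dixon's 95% limit, which is used here to point out cells and not as a test of these genes, since Pcp4 and Camkv were picked for their patterns. For Pcp4 in D6 and Pcp4l1 in B3 all other cells of the group lay at the floor of 200, where any value above the floor is pointed out. Pcp4 was 19049 in the cultured P5 pNdrg4 cell D6, where the other 4 cells had at most 55.0. Camkv was 8901 in the P5 pNdrg4 cell B1 with no culture stated. The other 3 values lay below the detection level: Pcp4l1 at 480.4 in B3 with no culture stated, Camk2a at 323.1 in D6 and Camk2a at 240.0 in B1 with no culture stated. In all 20 groups of values were examined. Dixon's limit does not allow for values tied at the floor, so no chance rate is given and nothing is read from the number flagged.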

How the results depend on the processing

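Of 1161 values recomputed under alternatives, 1078 stayed within a limit set for their kind, 83 moved further and 0 called values changed sign. Called values were differences of at least 2 log2 units and correlations with Slc6a9 or Gad1. Smaller differences did change sign when 1 cell was left out. Pcp4 by age in pNdrg4 cells ranged from -1.31 to 4.45, and Camk2b by reporter at P8 from -1.01 to 3.48. For the differences of the listed genes the limit was the SD between cells, and 654 of 672 stayed within it. That count is no measure of robustness, because the limit was wide. At P8 Pcp4 differed by 3.87 between reporters, and 0.98 without A1 still counted as within the limit. For detection shares it was the exact interval and for correlations a change of 0.1. Counts were held to a set ratio, and the 5 most like genes to a set overlap. Camk2a was detected in 0 cells at a level of 2000, with the median probe set or after quantile normalization, and Camk2d in 0 cells with the median probe set. The Camkv culture difference was 4.74 with group medians. The likeness of Camkv and Slc6a9 was 0.70 as phi and 0.69 among the cells with no culture stated alone. That last setting was added after the data were seen and had Camkv detected in 1 cell. Leaving out each cell in turn gave 4.84 to 6.48 for Pcp4 in the P5 reporter comparison, 0.98 to 6.75 at P8, 1.77 to 3.13 for Camkv by culture, 1.86 to 2.65 for Camkv by age and 0.85 to 0.94 for Camkv with Slc6a9. With a floor of 50 or group medians 2 listed genes were higher by at least 2 in the P5 reporter comparison, against 1 in the reported setting, and by culture 2 with a floor of 50, 3 with group medians and 0 with a floor of 500, against 1. By age in the mean the count was 2 with a floor of 50, against 1. No paired analysis was possible because the labels give no replicate numbers that groups share and each cell is its own sample. Amplification from 1 cell limits these values: a gene below the detection level may have been lost before hybridisation, values at the floor have no order, and groups of 2 to 10 cells of unnamed animals give no test of a difference.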
